A study of Sus scrofa with 4 samples.

Results

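The mitochondrial ribosomal protein genes were examined in porcine granulosa cells (GCs) exposed to non-esterified fatty acids (NEFAs). The set was every gene in the probe annotation of the array whose symbol begins with MRPL or MRPS followed by a digit, counting probes that name a single gene and letting the brightest probe stand for a gene. This gave 52 of the 10024 annotated genes, with 79 probes. All 52 had a value on all 4 arrays, as did 9964 of the annotated genes, and all 52 symbols matched a pig gene in RefSeq (Sscrofa11.1). RefSeq names 77 such pig genes, so 25 were not analysed here.

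GCs were aspirated from follicles of slaughterhouse pig ovaries, grown as monolayers for 7 days and then kept with cumulus-oocyte complexes (COCs) for the 44 h of in vitro maturation (IVM). The NEFA group received palmitic, stearic and oleic acid in the maturation medium. The control group received the same medium with the same amounts of bovine serum albumin and ethanol and no added NEFAs. Both groups had epidermal growth factor and follicular fluid throughout maturation. Gonadotropins (FSH and LH) and dibutyryl-cAMP were present in the first part of maturation only. The COCs were removed and the monolayers washed before lysis, the wells of a plate were pooled as 1 replicate, and the 4 replicates came from different days. In each replicate, RNA of NEFA cells and of control cells was amplified, labelled with different dyes and hybridised to a shared array, named A for replicate 1, B for 2, C for 3 and D for 4.

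Mitochondria keep their own ribosome, which translates the few mRNAs encoded by the mitochondrial genome, all of them for membrane subunits of oxidative phosphorylation. Its proteins are encoded in the nucleus, made in the cytosol and imported, and they assemble with mitochondrial ribosomal RNA into a large subunit, which joins amino acids, and a small subunit, which reads the mRNA. Some of these proteins descend from bacterial ribosomal proteins, and the others exist only in mitochondria. In the ovary, the oxidative phosphorylation that depends on this ribosome serves energy supply, and steroid synthesis begins in the mitochondria of GCs. Palmitic, stearic and oleic acid are themselves oxidised in mitochondria.

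A value here is the log2 ratio of NEFA over control on an array, so a value below 0 means a lower signal with NEFAs. The direction of these ratios is likely and not certain. The channel fields of the sample labels and the sample titles give opposite dyes to the groups on all 4 arrays. The channel fields were followed, because most genes of the study's own list then carry its sign, and the titles would turn every sign below. More of that list carried its sign with the columns as headed (76.3% of 573 genes) than with array A exchanged (66.1%). The study drew that list from these same 4 arrays. It therefore cannot settle the direction independently, either for the dyes or for array A. Arrays A and B are labelled alike but ran against each other over all probes (r = -0.736). As headed, array A ran with C and D (r = 0.323 and 0.296), and C ran with D (r = 0.474). Array B ran against C and D (r = -0.405 and -0.325). Exchanging array A turns the sign of its pairs, so that A and B then run together and both run against C and D. On the 57 control probes of the array, the red over green ratio of array A also ran against the mean of the other arrays (r = -0.994), whereas arrays B, C and D gave r of 0.957 to 0.992. The local background was 63 in red and 117 in green on array A. On arrays B, C and D it was 116 to 173 in red and 61 to 75 in green. The median raw intensity was likewise higher in red on array A (471 against 341) and higher in green on B, C and D. Why array A differs was not tested. The main results are therefore given with the columns as headed, with the 2 channels of array A exchanged, and without array A. Some further values, such as means over the probes of a gene, are given with array A exchanged only.

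Of the 52 genes, 40 were above background, that is, brighter than the negative control spots by over 2 SD of these spots in every NEFA channel or every control channel, against 2913 of the 9964 genes. The set held 32 proteins of the large subunit, 24 of them above background, and 20 of the small subunit, 16 of them above background. By descent, 34 had a bacterial counterpart and 18 were particular to mitochondria. Of 17 listed GC markers 8 were measured, and AMH, FST, NR5A1 and NR5A2 were above background. INHBA, LHCGR, SERPINE2 and CDH2 were measured and not above background. The other listed GC markers, among them FSHR, CYP19A1, CYP11A1 and STAR, were not measured here. Of the 7 oocyte markers measured only the growth factor gene GDF9 was above background, and of the 3 cumulus markers only HAS2. Of the 3 fibroblast and smooth muscle markers only ACTA2 was, and none of the theca, leukocyte and endothelial markers measured (2, 3 and 2 genes) was. GDF9 averaged 0.15 as headed and -0.15 with array A exchanged, and the part of such cells in the results was not tested. These are bulk samples, in which fewer cells of a type and less RNA per cell cannot be told apart.

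The question was whether the mitochondrial ribosome genes as a group, or any single one, differed between the NEFA and control cells. With the columns as headed, none of the 52 genes passed the criterion of the study, which asks for a 1.2-fold change with an unadjusted p under 0.05 (limma, two-sided). Over all 9964 genes, 0.281% passed as higher and 0.522% as lower. This reading called few probes of any kind. Of all 43794 probes, 612 had a limma unadjusted p under 0.05 and 342 were called, against 2175 and 1602 with array A exchanged. The counts that the study reported lie between those of these readings. At any fold, 0 of the 52 had an unadjusted p under 0.05, against 0.492% of all genes higher and 0.933% lower. The smallest unadjusted p was 0.0743, for MRPL32 (limma adjusted p = 0.9995).

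With array A exchanged, 5 of the 52 genes were called lower and 0 higher. The 5 are 9.62% of the set, against 3.08% of all genes called lower and 1.08% called higher. Brighter genes were called more often, and among the genes above background the share called lower was 12.5% of the 40 members against 9.47% of 2913 genes (2.3% were called higher, and 0 members). Unadjusted p was under 0.05 at any fold in 10 members, all lower, which is 19.2% of the set against 4.49% of all genes lower and 1.37% higher, and 25.0% of the 40 members above background against 13.3%. No member passed after Benjamini-Hochberg adjustment over all 43794 probes (smallest limma adjusted p = 0.627). Without array A, 2 of 52 were called lower and 0 higher, 3.85% against 2.39% of all genes called lower and 0.733% called higher. A dye term in the model left 5 called lower with array A exchanged, against 3.71% of all genes, and 0 higher, against 3%.

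**Figure D1:**
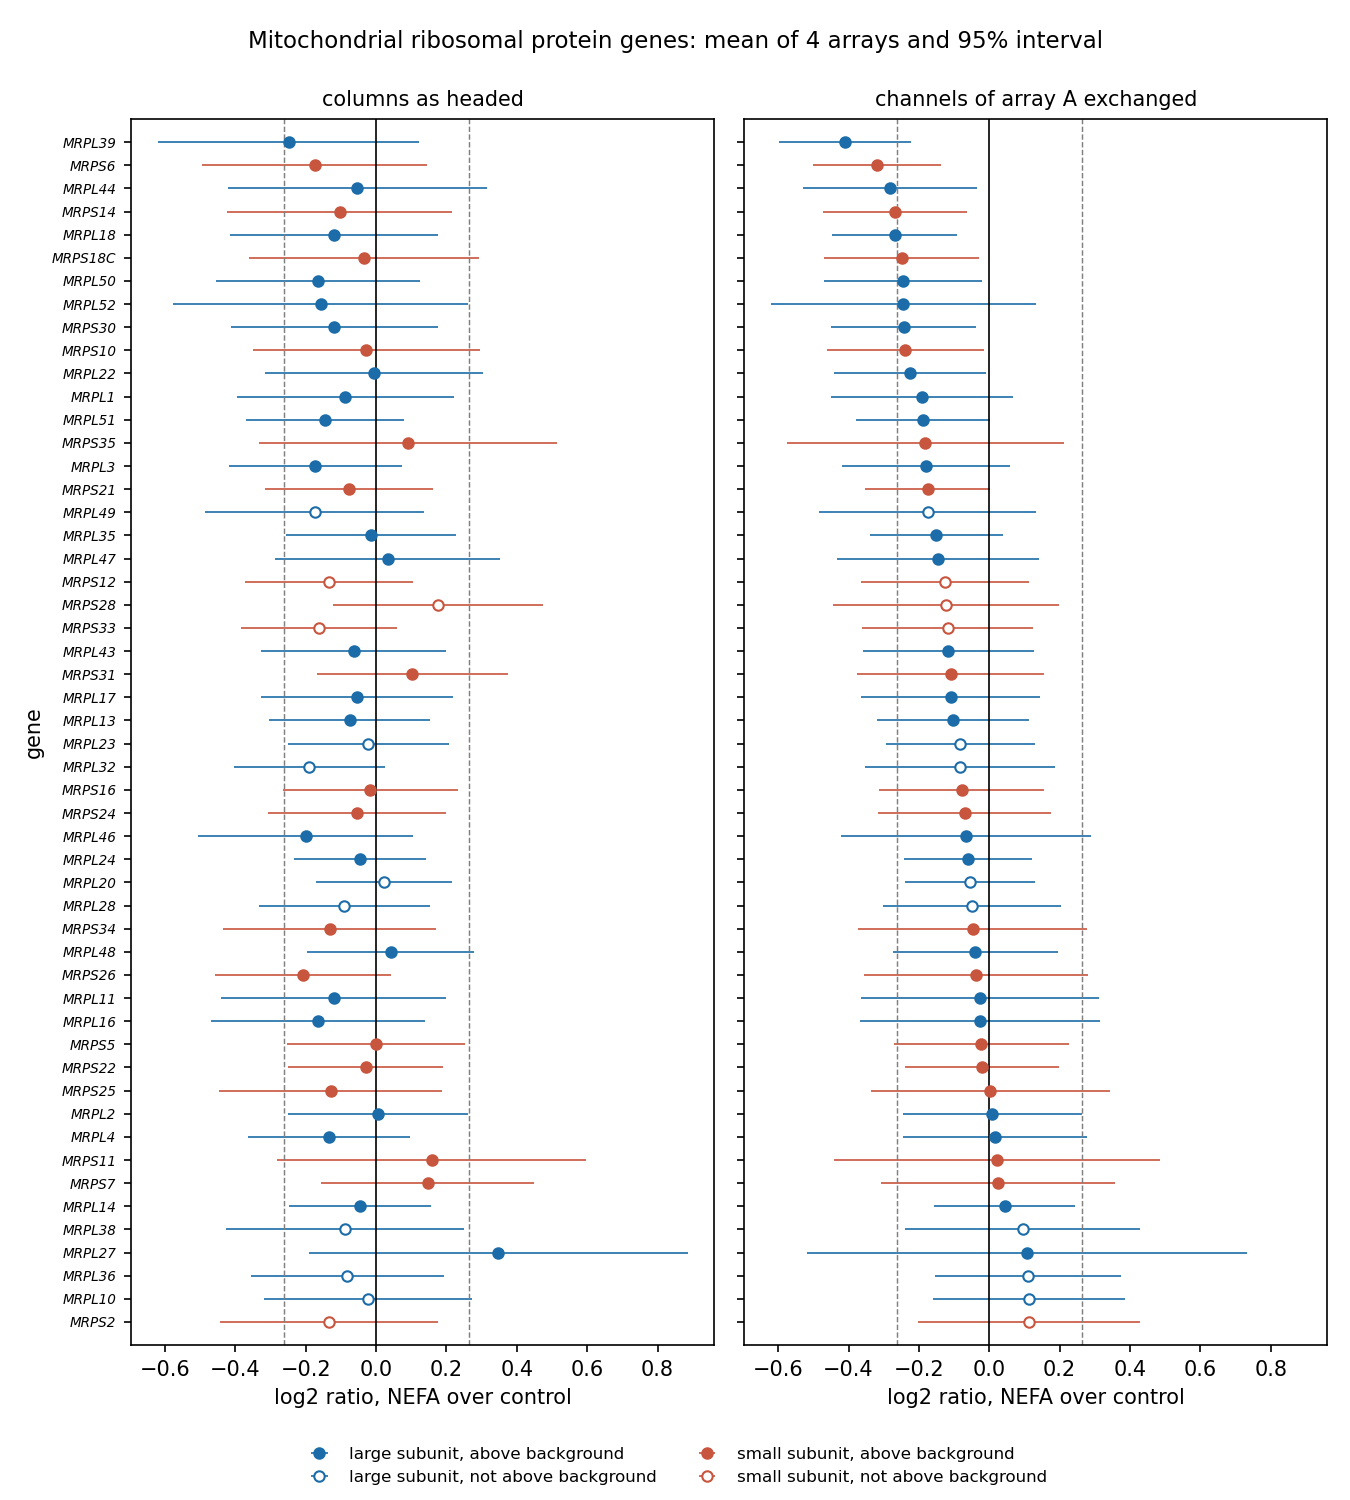
Mean log2 ratio of NEFA over control (x axis) of each of the 52 genes with its 95% interval over 4 arrays, with columns as headed (left) and with array A exchanged (right). Dashed lines mark a 1.2-fold change; as headed every interval crosses 0, and with array A exchanged 10 intervals lie wholly below 0 and none above.

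The differences were small throughout, and most of them pointed the same way. As headed, the ratios ran from -0.25 for MRPL39 to 0.35 for MRPL27, with a median of -0.08 against -0.02 over all genes and -0.05 over the genes above background. In this reading 42 of the 52 were below 0 (80.8%), against 58.1% of all genes and 65.8% of those above background. Once array A was exchanged they ran from -0.41 for MRPL39 to 0.11 for MRPS2, with a median of -0.09 against -0.01 over all genes and -0.05 over those above background. Here 41 were below 0 (78.8%), against 54.0% and 59.9%. The 95% interval of the ratio lay within 1.5-fold of no change for 49 genes in either reading, and within 2-fold for all 52. The scaling between arrays moved the set together with the other genes. Without quantile normalization the median of the set was -0.03 as headed and -0.02 with array A exchanged, against -0.01 and 0.04 over the genes above background. In that setting 32 of the 52 were below 0 as headed, against 52.6% of all genes. With array A exchanged 27 of the 52 were below 0, close to an even split, against 48.4% of all genes. How far the set lay below 0 thus depended on this scaling.

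The arrays did not carry this equally. The median of the 52 was 0.11 on array A as headed, which is -0.11 when exchanged, and -0.03 on array B, -0.15 on array C and -0.14 on array D. Over all genes above background the medians were 0.06 or -0.06 on array A, -0.03 on B, -0.17 on C and -0.07 on D. On array C the set therefore lay close to other bright genes. The members above background alone had medians of 0.16 or -0.16 on array A, -0.10 on B, -0.20 on C and -0.14 on D. Members below 0 numbered 18 on array A as headed (34 exchanged), 28 on B, 39 on C and 41 on D. All 4 arrays were below 0 for 2 members as headed, against 4.76% of all genes, and for 13 with array A exchanged (25.0%), against 9.37% of all genes. Among genes above background the shares below 0 on all 4 arrays, with array A exchanged, were 32.5% of members and 19.9% of genes. No member was above 0 on all 4 arrays in either reading, against 2.91% of all genes as headed and 3.6% with array A exchanged.

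**Figure D2:**
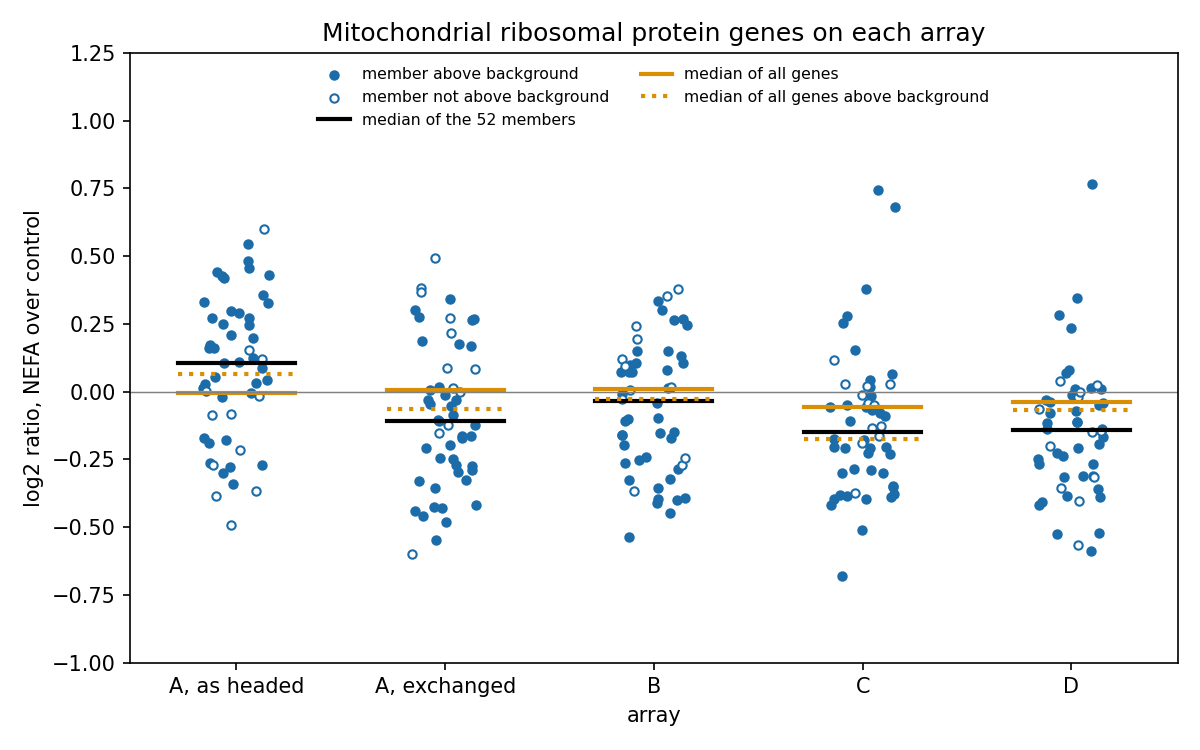
Log2 ratio of NEFA over control (y axis) of the 52 genes on each array, array A in both readings, with the medians of the set and of all genes. The set's median lies at -0.11 on array A exchanged, -0.03 on B, -0.15 on C and -0.14 on D, and at 0.11 on array A as headed.

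Among the proteins of the large subunit, MRPL39 had the lowest ratio in both readings. It belongs to the proteins with no bacterial ribosomal counterpart. Its normalised log2 intensity in the NEFA channel and the control channel was 11.07 and 11.48 on array B, 10.96 and 11.35 on C, and 11.34 and 11.86 on D. On array A the columns held 11.71 and 11.39 as headed and the reverse when exchanged. The ratios were thus -0.41, -0.39 and -0.52 on arrays B, C and D, and 0.33 or -0.33 on array A. In the exchanged reading all 4 arrays were low and close to each other, and as headed array A stood alone on the other side.

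The mean for MRPL39 was -0.41 ± 0.08 (SE, 4 arrays) with array A exchanged, with a 95% interval of -0.60 to -0.22 and a limma unadjusted p of 0.00159 (adjusted p = 0.627). As headed it was -0.25 ± 0.15 (unadjusted p = 0.154). On arrays B, C and D alone it was -0.44 ± 0.10 (limma unadjusted p = 0.00561), so its call did not need array A. A second probe of MRPL39, also above background, averaged -0.38 ± 0.10 with array A exchanged (limma unadjusted p = 0.00847), with -0.63, -0.48, -0.18 and -0.25 on arrays A to D. As headed that probe averaged -0.07 (limma unadjusted p = 0.710). With array A exchanged both probes were therefore below 0 on all 4 arrays, although they read the same RNA and are no separate replicates.

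MRPL18 and MRPL44 were the other large subunit genes called with array A exchanged. MRPL18 is a counterpart of the bacterial protein that binds the small rRNA of the large subunit. Its ratios were -0.26, -0.20 and -0.31 on arrays B, C and D and -0.30 on array A exchanged, and the 4 values lay close together. Their mean was -0.27 ± 0.07 (limma unadjusted p = 0.00997), against -0.12 ± 0.12 as headed (unadjusted p = 0.363). A second, dim probe of MRPL18 averaged -0.04, and the mean of both probes was -0.16 (limma unadjusted p = 0.0926), which is no call.

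MRPL44, which has a fold related to the RNA-cutting enzyme RNase III, had ratios of -0.40, -0.28 and 0.01 on arrays B, C and D, and -0.46 on array A exchanged. Array D showed no difference. The mean was -0.28 ± 0.10 with array A exchanged (limma unadjusted p = 0.0310) and -0.05 ± 0.15 as headed (unadjusted p = 0.736). The call was lost when replicate 1, 2 or 3 was left out, at ratios of -0.22, -0.24 and -0.28 (limma unadjusted p from 0.0737 to 0.119).

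Of the small subunit, MRPS6 and MRPS14 were called with array A exchanged, both counterparts of bacterial proteins. MRPS6, whose bacterial relative sits on the platform of the small subunit, had log2 intensities in the NEFA and control channels of 9.93 and 10.17 on array B, 9.53 and 9.92 on C, and 10.03 and 10.39 on D. Its ratios were -0.24, -0.39 and -0.36 there and -0.29 on array A exchanged, so that all 4 were low. The mean was -0.32 ± 0.08 with array A exchanged (limma unadjusted p = 0.00501), -0.17 ± 0.13 as headed (unadjusted p = 0.231) and -0.33 ± 0.10 without array A (limma unadjusted p = 0.0190). MRPS6 and MRPL39 were the genes called both with array A exchanged and without it.

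MRPS14 lies in the head of the small subunit in bacteria. Its ratios were -0.11, -0.23 and -0.41 on arrays B, C and D and -0.33 on array A exchanged, all low, with array B nearest to 0 and array D farthest from it. The mean was -0.27 ± 0.08 (limma unadjusted p = 0.0182), against -0.10 ± 0.13 as headed (unadjusted p = 0.459). The calls of MRPS14 and MRPL18 were lost when replicate 1 or replicate 4 was left out. MRPL18 then stood at -0.26 and -0.25 (limma unadjusted p = 0.0424 and 0.0349), just short of 1.2-fold, and MRPS14 at -0.25 and -0.22 (0.0685 and 0.0682).

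**Figure D3:**
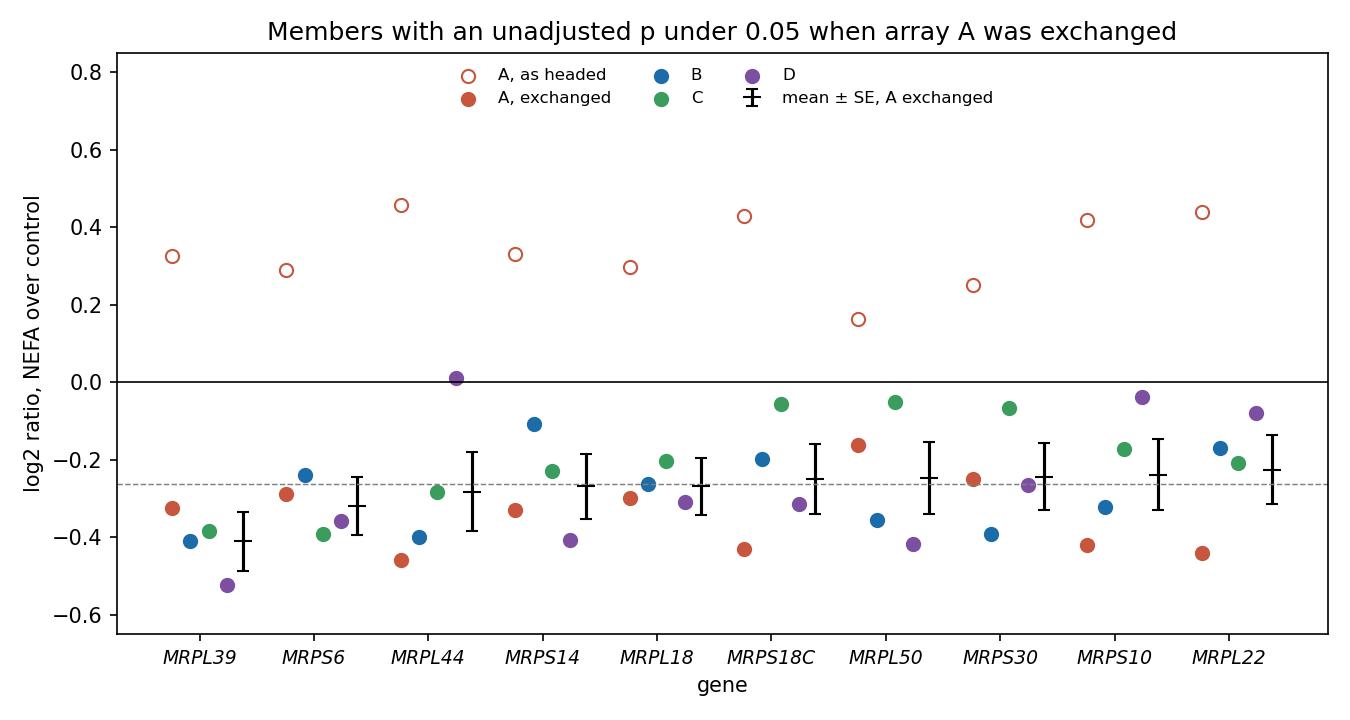
Log2 ratio of NEFA over control (y axis) on each array for the 10 genes with an unadjusted p under 0.05 when array A was exchanged, with the mean ± SE of that reading; the dashed line marks 1.2-fold lower. Open circles show array A as headed, above 0 for all 10, while the other arrays are below 0 except array D for MRPL44 (0.01).

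A further 5 genes had an unadjusted p under 0.05 with array A exchanged but not a 1.2-fold change. They were MRPS18C at -0.25 ± 0.09, MRPL50 at -0.25 ± 0.09, MRPS30 at -0.24 ± 0.09, MRPS10 at -0.24 ± 0.09 and MRPL22 at -0.23 ± 0.09 (limma unadjusted p from 0.0280 to 0.0436). All 5 were below 0 on all 4 arrays in that reading. MRPS18C and MRPS10 are counterparts of bacterial small subunit proteins. MRPS30 is named for the small subunit but was found in the large one by structure, MRPL50 is particular to mitochondria, and MRPL22 lines the exit tunnel of the bacterial large subunit.

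The spread between arrays differed among these 5. MRPL22 had -0.17, -0.21 and -0.08 on arrays B, C and D, and -0.44 on array A exchanged, where it was lowest. MRPS18C had -0.20, -0.06 and -0.31 there and -0.43 on array A, and a second bright probe of it averaged -0.20. MRPS10 had -0.32, -0.17 and -0.04, with -0.42 on array A.

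For these 3 genes array A gave the lowest value, and as headed their means were -0.01, -0.03 and -0.03. MRPL50 had -0.36, -0.05 and -0.42 on arrays B, C and D and -0.16 on array A exchanged. MRPS30 had -0.39, -0.07 and -0.27 there, and -0.25 on array A. Array C was nearest to 0 for both, and as headed their means were -0.165 and -0.12. The probes of MRPS18C did not all lie low, since a dim one averaged 0.09, and the mean of its 3 probes was -0.12 (limma unadjusted p = 0.204).

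As headed, the 4 genes with the smallest unadjusted p were MRPL32 (-0.19 ± 0.09), MRPS26 (-0.21 ± 0.10), MRPS33 (-0.16 ± 0.09) and MRPL3 (-0.17 ± 0.10), with unadjusted p from 0.0743 to 0.138. MRPL32, a counterpart of a bacterial protein whose maturation needs a mitochondrial protease, had -0.21, -0.03, -0.37 and -0.15 on arrays A to D, and its probe was not above background. MRPS33, a mitochondria-specific protein of the small subunit that was also not above background, had -0.09, -0.37, -0.19 and -0.00. These were the 2 members below 0 on all 4 arrays as headed, and both are dim.

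MRPS26, a mitochondria-specific protein of the small subunit, had -0.34, 0.07, -0.40 and -0.17 on arrays A to D as headed. MRPL3, a core protein of the large subunit, had 0.01, -0.01, -0.38 and -0.32, and so lay clearly below 0 on arrays C and D only. Their means were -0.04 ± 0.13 and -0.18 ± 0.10 with array A exchanged, and MRPL3 was the one of these 4 whose value barely moved.

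The subunits were set side by side without a test of their difference. As headed the median was -0.08 for the 32 large subunit genes and -0.04 for the 20 of the small subunit, and with array A exchanged it was -0.09 in both. The calls with array A exchanged were 3 of 32 and 2 of 20. Genes with a bacterial counterpart had a median of -0.05 as headed and -0.08 exchanged, and those particular to mitochondria -0.13 and -0.12. Their calls were 3 of 34 and 2 of 18, and the difference between these classes was not tested. Among members above background the called shares were 12.5% in each subunit, and 12% and 13.3% in the classes by descent. In that reading 3.08% of all genes, and 9.47% of those above background, were called lower.

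Probes of the same gene were not always alike. Of the 21 members with more than 1 probe, all probes had the same sign in 14 with array A exchanged. MRPL27, whose bacterial relative reaches the peptidyl transferase centre, had the widest spread of the set. Its brightest probe read -0.48 on array A exchanged, -0.54 on B, 0.68 on C and 0.77 on D, whereas another bright probe of the gene read 0.16, 0.14, -0.09 and -0.09. The first probe was thus brighter in the red channel on every array in that reading, by 0.62 on average on the log2 scale, and neither probe passed the test. MRPS7, of the small subunit head, showed the same order, with -0.24 and -0.29 on arrays A exchanged and B, and 0.28 and 0.35 on C and D.

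**Figure D4:**
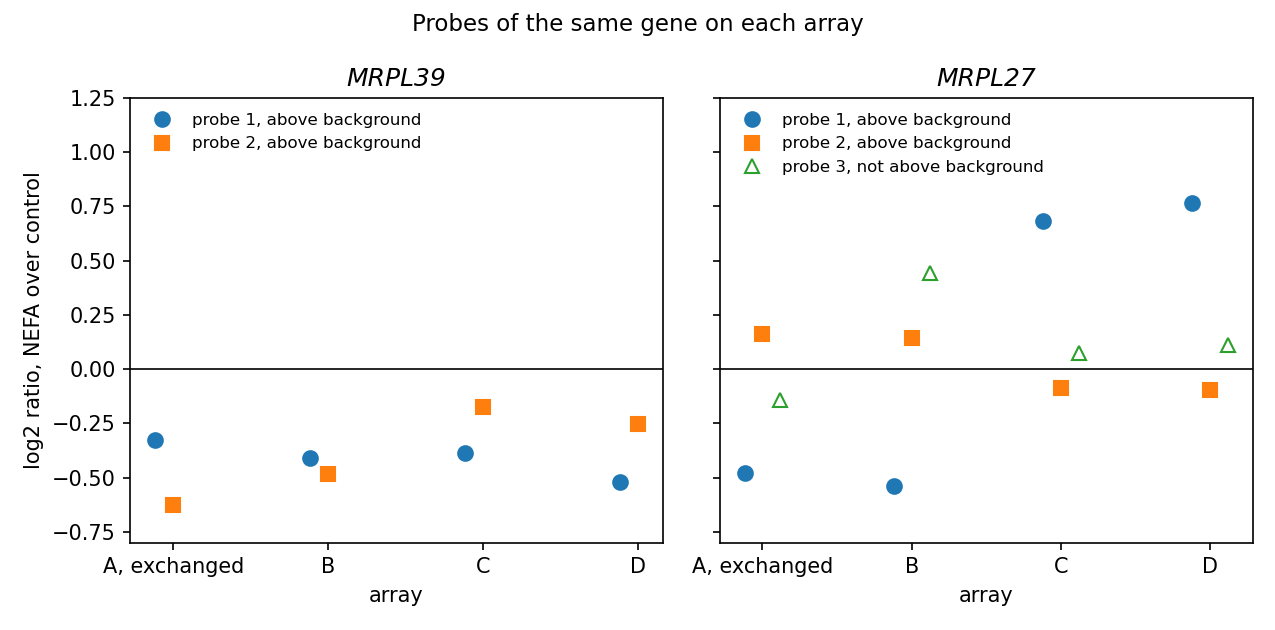
Log2 ratio of NEFA over control (y axis) on each array, array A exchanged, for the probes of MRPL39 (left) and MRPL27 (right). Both probes of MRPL39 lie below 0 on all 4 arrays, while probe 1 of MRPL27 lies near -0.5 on arrays A and B (-0.48 and -0.54) and at 0.68 and 0.77 on C and D.

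Ratios were small for the other genes of mitochondrial translation too. Of 63 listed genes, 32 were measured and 17 were above background. As headed 0 were called higher and 1 lower, ERAL1, a chaperone of the rRNA of the small subunit, at -0.37 ± 0.15 (limma unadjusted p = 0.0472). Its probe was not above background and it averaged 0.06 with array A exchanged. In that reading 0 were called higher and 2 lower, 6.25% of the 32 against 3.08% of all genes. Both of these were among the 17 above background, and of all 2913 genes above background 9.47% were called lower. The median of the 32 was -0.04 in both readings. Among the 3 with the smallest p as headed was also NARS2, the mitochondrial asparaginyl-tRNA synthetase, at 0.14 ± 0.08 (limma unadjusted p = 0.121), not above background and at 0.04 with array A exchanged.

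The 2 genes were MTRF1L, a release factor that ends translation, and DAP3, a GTP-binding protein of the small subunit that lacks the MRPS name. MTRF1L had -0.38, -0.34 and -0.48 on arrays B, C and D and -0.19 on array A exchanged, with a mean of -0.35 ± 0.08 (limma unadjusted p = 0.00544), against -0.25 ± 0.13 as headed (unadjusted p = 0.0927). DAP3 had -0.14, -0.49 and -0.29 there and -0.14 on array A exchanged, with a mean of -0.26 ± 0.09 (limma unadjusted p = 0.0267). As headed its mean was -0.19 ± 0.12 (limma unadjusted p = 0.152). With array A exchanged the mean of its 3 probes was -0.12, and both genes were low on all 4 arrays. GTPBP10, a GTPase of large subunit assembly, averaged -0.21 ± 0.08 in that reading (limma unadjusted p = 0.0414) and did not reach 1.2-fold. Its mean as headed was -0.04 (limma unadjusted p = 0.721).

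The remaining groups of that list had few calls or none. None of the 10 aminoacyl-tRNA synthetases measured and none of the 9 assembly factors was called with array A exchanged. Over all genes 3.08% were called lower and 1.08% higher, so lists this short would hold few calls in any case. Their medians were 0.00 and 0.04 (-0.03 for both as headed), and only 2 of the synthetases and 5 of the assembly factors were above background. TFAM, which packages and transcribes mitochondrial DNA, averaged -0.20 with array A exchanged and 0.01 as headed, and was not called. Among the elongation factors TUFM averaged 0.21 with array A exchanged and -0.14 as headed, and was not called either.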

How the data were processed

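The 4 arrays were 2-colour EmbryoGENE porcine arrays. The intensity values that the authors deposited are mean raw and mean local background intensities per spot in the green (Cy3) and red (Cy5) channels, not normalized. The other deposited value used, per the file headers, marks spots that the extraction software ignored (60 to 121 expression probes per array), which were set to missing. A deposited table of ratios was not used, because its rows could not be matched to the spots. Of 45220 spots, 43794 were expression probes. The background step was limma's normexp with an offset of 50, since the plain subtraction of the methods leaves values at or below 0. Loess within and quantile normalization between arrays followed, as in the methods, and limma 3.58.1 in R 4.3.3 fitted 1 coefficient, NEFA over control, signed by dye.

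The annotation names 1 gene for 13146 probes. A gene was called at an unadjusted p under 0.05 and 1.2-fold, the criterion the study used, and adjusted p-values run over all probes. The array build is not given in the sources used here. The number of arrays limits the precision, the highest raw intensity was 43025, and the share of probes above 153 negative control spots was 23.8% to 42.6% per array and dye. Replicates are cultures of different days.

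Members, lists and tests were chosen with earlier results of these data known. Values per array are given for members with an unadjusted p under 0.05 as headed or with array A exchanged, the 4 with the smallest p in each, and those with 1 array apart from the rest. Of the other list, called genes and the 3 with the smallest p are named. MRPL27, MRPS2, TFAM and TUFM were named after their values were seen. The alternatives covered background correction, normalization, dim probes, a dye term, the block, the variance model, probes of a gene and each replicate left out. The fit was also run on simulated data with array A exchanged and independent noise on each array. That simulation held no dye effect and no correlation between arrays, so it cannot tell how the fit behaves under these. No mitochondrially encoded mRNA had a probe named for it.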

Additional observations from a re-analysis of the deposited data

Results flagged for a closer look

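Among 4 arrays, 1 array stood apart from the other 3 by Dixon's test for 6 values, in a test of 52 genes in each reading that chance alone passes in about 1 in 20 groups. As headed, MRPL39 had 0.33 on array A while its other arrays were at -0.39 to -0.52. Array B stood apart as headed for MRPS7 and MRPS16, counterparts of bacterial small subunit proteins, and for the mitochondria-specific MRPS25. MRPS7 had -0.29 there, against 0.24 to 0.35 on the other arrays. MRPS16 had -0.33, against 0.07 to 0.12, and MRPS25 had 0.33, against -0.35 to -0.24. With array A exchanged, MRPS21 had -0.10 on array B, nearer to 0 than its other arrays (-0.19 to -0.21), and MRPS28, a dim probe, had -0.60 on array A, against -0.02 to 0.09.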

How the results depend on the processing

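Over the alternatives to the columns as headed, 0 members were called, with these exceptions. With array A exchanged 5 were lower. With a replicate left out, 0 to 2 were higher and 0 to 3 lower, namely 2 higher and 3 lower without replicate 2, when 7.3% of all genes were higher and 7.44% lower, and 2 lower (MRPL39 and MRPS6) without replicate 1, when 2.39% were lower. All genes counted 108 higher and 307 lower with array A exchanged, against 28 and 52 as headed. The fit with no replicate block, which treats the channels as unpaired, called 0 members as headed (0.281% of all genes lower) and 2 lower (MRPL39 and MRPS14) with array A exchanged (0.923%), and each array holds both RNAs of its replicate.

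With array A exchanged, 2 to 9 members were lower with a replicate left out, 2 without replicate 1 (2.39% of all genes lower) and 9 without replicate 3 (3.39%). Apart from these and the dye term, the alternatives of that reading were chosen after seeing the data. Among them the count lower was 3 with background subtraction (2.6% of all genes), 2 with no background correction (2.21%) and 1 with no normalization between arrays (1.21%), where the median was -0.015. MRPL39 was called in all 14 settings of that reading, MRPS6 in 12.

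The other translation genes called lower numbered 1 as headed (0.522% of all genes) and 2 with array A exchanged (3.08%). As headed they were 0 with a dye term, background subtraction, no normalization between arrays, bright probes only or no block (0.206% to 0.682% of the genes fitted). With a replicate left out as headed they were 0 to 2 lower and 0 to 1 higher. The shares of all genes were then 0.141% to 7.44% lower and 0.13% to 7.3% higher. With array A exchanged and a replicate left out they were 1 to 3 lower and 0 to 1 higher. There the shares of all genes were 2.39% to 3.76% and 0.733% to 3.37%. In that reading 1 was lower with background subtraction, no background correction, no normalization between arrays, bright probes only, no block or the mean of all probes. The shares of the genes fitted were 0.923% to 8.03%.

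Single genes changed sign near 0. With no normalization between arrays MRPL22 was 0.093, MRPS10 0.0026 and MRPS18C 0.016 as headed, and MRPS16 0.0022 and MRPS26 0.070 with array A exchanged. With no background correction MRPS16 was 0.00027 as headed, and with array A exchanged MRPS25 was -0.00014 and MRPS28 0.032. MRPS25 was -0.0018 with background subtraction in that reading. The mean of probes gave 0.034 for MRPS18C as headed. The exchange gave 0.0027 for MRPS25 and -0.12 for MRPS28. With a replicate left out as headed, MRPL22 ran from -0.15 to 0.063, MRPL44 from -0.22 to 0.062, MRPS10 from -0.18 to 0.070, MRPS16 from -0.063 to 0.087 and MRPS18C from -0.19 to 0.058. With array A exchanged, MRPL32 ran from -0.18 to 0.015, MRPS7 from -0.083 to 0.13, MRPS16 from -0.13 to 0.0040, MRPS25 from -0.11 to 0.12, MRPS26 from -0.16 to 0.082 and MRPS28 from -0.20 to 0.035. The causes were not tested. With 4 arrays, intervals reached beyond 1.5-fold for 3 members, and 12 members were not above background.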
